A study of Microtus ochrogaster with 23 samples.

Results

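DNA methylation in the dentate gyrus (DG) was compared between 6 “Attacker” and 6 “Mother” prairie voles, a pair of groups that lie at opposite ends of the response to pups. These 12 animals were chosen from the 23 of the series by their group label, and all of them entered the comparison. The “Attacker” animals were adult wild-type males without sexual experience that attacked an unfamiliar pup. The “Mother” animals were adult wild-type females that had been paired with a male, had given birth and were housed with their own litter. “Attacker” males were taken away from the pup at their first attack, while the other groups stayed with it. Sex, pair bonding, parenthood, time with the pup and response to it therefore differ together between the groups and cannot be told apart in this comparison. The 6 “Parental” males (without sexual experience, caring for the pup) and the 5 “Father” males (paired, with a litter) entered no test and are given beside the results as further males. Each library came from tissue punches of the DG of 1 animal, so that all cell types of the punch were read together, and no marker in these data tests which cells it held.

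Reduced-representation bisulfite sequencing (RRBS) reads DNA fragments cut by the enzyme MspI, which come mainly from CpG-rich sequence. At each cytosine the level is the percentage of reads in which bisulfite left it unconverted. Between 64896224 and 107544819 calls were present per “Attacker” library and between 68110536 and 100129133 per “Mother” library, with a read entered once per CpG it covers. The methylated share of all calls spread from 8.34% to 38.7% over “Attacker” libraries, with “Attacker” 6 the highest, and from 10.6% to 14.5% over “Mother” libraries. In both groups the library numbered 1 had the lowest share and that numbered 6 the highest. Cytosines of the chromosome named X were set aside, and 1245665 cytosines covered by 10 or more reads in 4 or more animals per group were kept. They fell into 60262 windows of 1 kb with at least 3 such cytosines, and the level of a window is the mean level of its cytosines in an animal.

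Most CpG islands, the CpG-dense stretches at the start of many genes, are unmethylated in brain cells. In female mammals the X chromosome that is silenced in a cell carries methylated CpG islands, whereas the active X and the X of males keep them largely unmethylated. The prairie vole assembly MicOch1.0 still holds many scaffolds that are not placed on a chromosome, so that the name of a sequence does not always say whether it is X-linked.

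At 17 of the 60262 windows (0.0282%) the level differed between “Attacker” and “Mother” animals (limma, Benjamini-Hochberg adjusted p under 0.05). The level was higher in “Mother” animals at 14 of them (0.0232% of the windows tested) and higher in “Attacker” animals at 3 (0.00498%). The groups did not overlap at any of the 17, against 337 windows without overlap among all those tested (0.559%, with 0.335% higher in “Mother” and 0.224% higher in “Attacker” animals), and 13 of the 17 differed by more than 15 percentage points. At 13 windows every “Attacker” animal was under 5% while the “Mother” animals lay above them. Only 4 of the 17 lie on a placed chromosome or linkage group, and 2 of these lie in annotated genes, Hs6st2 and Rpgr. At an unadjusted p under 0.05 there were 2815 windows (4.67%), 1595 higher in “Attacker” and 1220 higher in “Mother” animals. When any “Attacker” animal was left out, 2 or 3 windows were called, and without “Mother” 6 there were 2. Leaving out another “Mother” animal gave 12 to 15.

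**Figure D1:**
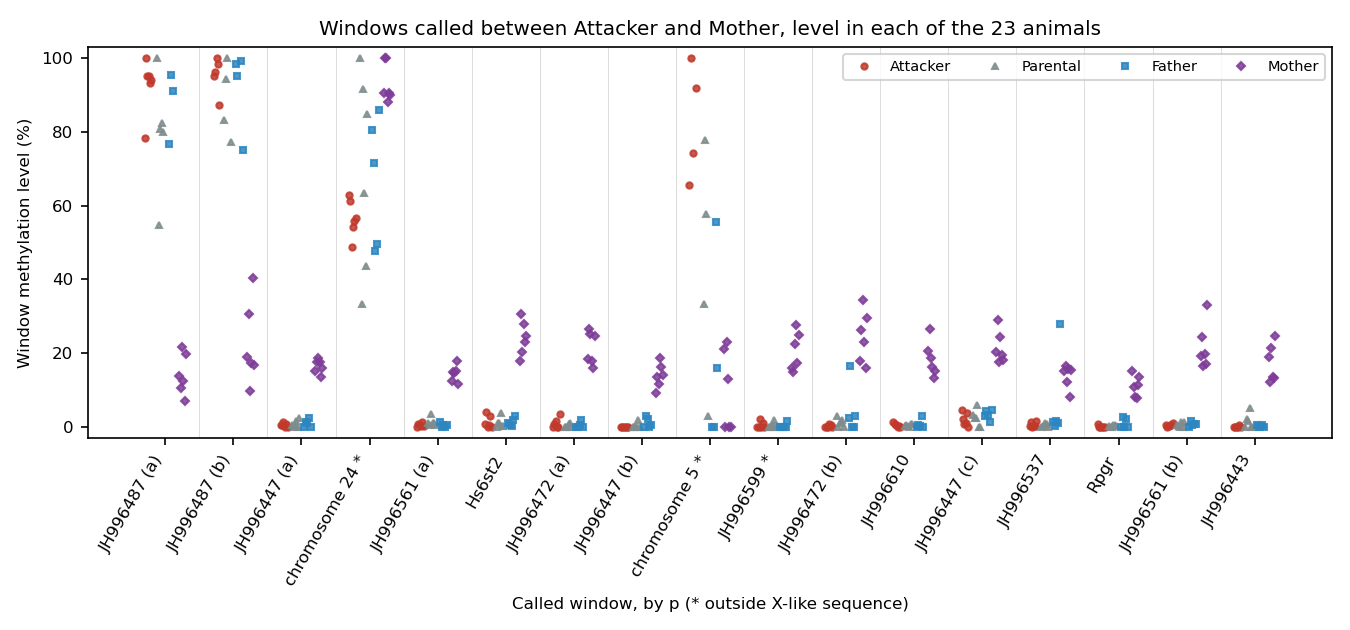
Methylation level (%) of each of the 17 called windows, in order of p, in each of the 23 animals. Points are animals, coloured by group, windows are named by gene, chromosome or scaffold, and letters mark several windows of 1 scaffold. “Mother” animals stand above all 6 “Attacker” animals at 14 windows. At 3 they stand below all “Attacker” animals with a level. At most windows the “Parental” and “Father” males lie with the “Attacker” males.

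Hs6st2 encodes a sulfotransferase that modifies heparan sulfate chains at the cell surface. Its called window, LG10:17581000-17581999, lies inside the annotated span of the gene (LG10:17580566-17858056), near its lower coordinate. The 81 cytosines of this window had levels of 0.930%, 3.95%, 0.126%, 0.591%, 2.97% and 0.131% in “Attacker” 1 to 6. In “Mother” 1 to 6 they had 17.99%, 30.7%, 20.3%, 28.0%, 23.1% and 24.6%. The lowest “Mother” animal was thus above the highest “Attacker” animal, and the difference was 22.7 ± 2.99 points (“Mother” minus “Attacker”, SE, n = 6 and 6, limma adjusted p = 0.0361). The other males, which did not choose the window, had 1.14% ± 1.44 (SD, n = 6) in “Parental” and 1.38% ± 1.10 (SD, n = 5) in “Father” animals.

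Rpgr encodes a regulator of transport into the cilium that is needed by photoreceptors. Its window, 10:36664000-36664999, overlaps the upper end of the gene span (10:36614313-36664993) and holds 34 cytosines. Levels were 0.850%, 0%, 0.113%, 0%, 0% and 0% in “Attacker” 1 to 6 and 15.1%, 10.8%, 8.25%, 7.74%, 11.3% and 13.5% in “Mother” 1 to 6. The groups did not overlap and the means were 0.160% ± 0.341 (SD, n = 6) and 11.1% ± 2.89 (SD, n = 6), a difference of 10.96 ± 1.597 points (“Mother” minus “Attacker”, SE, limma adjusted p = 0.0433). “Parental” males had 0.286% ± 0.227 (SD, n = 6) and “Father” males 1.00% ± 1.36 (SD, n = 5). Neither window was called when any “Attacker” animal, or “Mother” 6, was left out, with the difference in the same direction each time, nor was Rpgr without “Mother” 2 or 5. With a minimum of 20 reads per cytosine the Hs6st2 difference was 15.004 points and was not called.

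The read depth was then used to ask which sequences differ in copy number between females and males. Depth was scaled per animal on lowly methylated cytosines, and its ratio was centred within classes of the level in males. In stretches of 1 Mb with at least 50 cytosines, the log2 ratio of depth in “Mother” over “Attacker” animals had a median of 0.309 over the 43 stretches of the chromosome named X and of -0.003 over the 2001 other stretches. A stretch, or a whole scaffold where its stretches held too few cytosines, was called X-like where this ratio and that over “Parental” and “Father” animals were both at least 0.15. This held for 33 of the 43 stretches of chromosome X (76.7%) and for 52 of the 2001 others (2.60%). The ratio over “Attacker” animals had 5th and 95th percentiles of -0.160 and 0.161 in these others. The cut of 0.15 thus lies within their spread, and some X-like stretches may not differ in copy number. The rule also missed part of chromosome X, so that other sequence may still hold X-linked stretches. Of these 52, 17 lie on placed sequence, 7 of them side by side at 10:34000000-40999999 and 2 side by side at LG10:17000000-18999999. In all, 742 of the windows tested were X-like.

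Of the 17 called windows, 14 lie on X-like sequence, 12 of them higher in “Mother” and 2 higher in “Attacker” animals. X-like sequence thus held 14 of 742 windows, and the other sequence 3 of 59520. By the beta-binomial test on the summed reads of a window, 267 of the 59520 windows on other sequence were called. The rest of the 400 calls of that test lay among the 742 X-like windows. By limma on the log2 ratio of methylated to unmethylated reads, 70 of the 90 windows called were X-like. The share of windows called was thus higher on X-like than on other sequence by each of these tests. The 12 windows hold a median of 36 cytosines, against 8 over all windows, and 10 of them lie on 6 unplaced scaffolds. In these 12 no “Attacker” animal exceeded 4.60% and no “Mother” animal was under 7.74%, with “Mother” means from 11.1% to 24.6%. Of the levels of “Parental” and “Father” animals in the same windows, 2 exceeded 10%, the highest at 28.1%. The differences ranged from 10.96 to 24.4 points.

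The window with the most called cytosines in the “Mother” direction, 13, was JH996447.1:5748000-5748999. Its 53 cytosines had levels of 4.60%, 2.29%, 0.778%, 1.21%, 3.79% and 0% in “Attacker” 1 to 6 and 20.4%, 28.9%, 17.5%, 24.3%, 19.4% and 18.2% in “Mother” 1 to 6. The 2 groups were far apart, with a difference of 19.4 ± 2.82 points (“Mother” minus “Attacker”, SE, limma adjusted p = 0.0433), and “Parental” and “Father” means were 2.36% ± 2.24 (SD, n = 6) and 3.31% ± 1.35 (SD, n = 5). On the same scaffold JH996447.1:2015000-2015999 was at 0% in all 6 “Attacker” animals and at 9.34% to 18.8% in “Mother” animals. The densest called window, JH996561.1:459000-459999 with 119 cytosines, was at 0.590% ± 0.527 (SD, n = 6) in “Attacker” and 14.5% ± 2.19 (SD, n = 6) in “Mother” animals (limma adjusted p = 0.0298).

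The 2 X-like windows that were higher in “Attacker” animals lie 10 kb apart on scaffold JH996487.1 and were the pair with the smallest p. At JH996487.1:1882000-1882999, with 7 cytosines, levels were 78.2%, 100%, 95.1%, 95.2%, 93.2% and 94.0% in “Attacker” 1 to 6 and 13.9%, 10.5%, 21.7%, 12.4%, 7.09% and 19.9% in “Mother” 1 to 6. The difference was 78.4 ± 5.83 points (“Attacker” minus “Mother”, SE, limma adjusted p = 0.000284), and the other males were also high, at 79.6% ± 16.1 (SD, n = 5 with a level) in “Parental” and 87.7% ± 9.80 (SD, n = 3 with a level) in “Father” animals. At JH996487.1:1872000-1872999, with 9 cytosines, 5 “Attacker” animals with a level had 87.4% to 100% and the “Mother” animals 9.89% to 40.4%, a difference of 73.1 ± 6.96 points (SE, limma adjusted p = 0.00572). These 2 windows remained called when any animal was left out. Depth of this stretch was higher in “Mother” animals, with a log2 ratio of 0.58 over “Attacker” animals, and the windows held 1161 and 1365 “Attacker” reads against 2988 and 4445 “Mother” reads.

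The low state in males and intermediate state in “Mother” animals was not confined to called windows. Windows with a mean under 20% in “Parental” and “Father” animals were taken, and the mean over them was computed per animal. This choice used the levels of neither compared group. The X-like rule, however, used the read depth of both and was set after values were seen, so the result is not an independent check. Over the 448 such windows of X-like sequence this mean was 2.63%, 3.44%, 2.13%, 2.65%, 3.47% and 3.84% in “Attacker” 1 to 6 and 10.02%, 11.8%, 11.1%, 11.7%, 11.1% and 11.8% in “Mother” 1 to 6. Every “Mother” animal was thus above every “Attacker” animal. The “Parental” and “Father” animals, which chose the windows by their low level, lay between 1.95% and 3.35%, a description only. Over the 36436 such windows of other sequence the means were 4.76% ± 1.18 (SD, n = 6) in “Attacker” and 4.17% ± 0.243 (SD, n = 6) in “Mother” animals, and the groups overlapped.

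**Figure D2:**
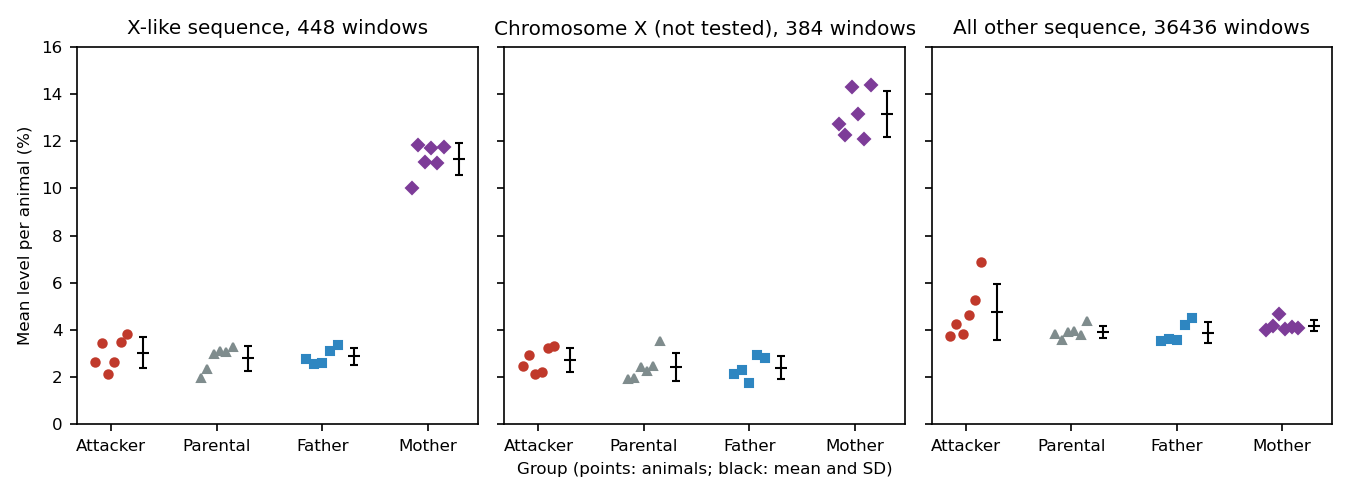
Mean methylation level per animal (%) over windows under 20% in “Parental” and “Father” males, for X-like sequence, for the chromosome named X, which entered no test, and for all other sequence. Points are animals and black marks the mean and SD. “Mother” animals lie at 10.02% to 11.8% over X-like sequence, above all 6 “Attacker” animals, and among them over other sequence. The “Parental” and “Father” males chose the windows, so their low level is no further support.

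Counted by window, 388 of the 448 had a higher mean in “Mother” than in “Attacker” animals, with a median difference of 7.16 points, and at 106 the groups did not overlap, each time with “Mother” animals higher. In other sequence 16934 of 36436 had a higher “Mother” mean, and at 54 the groups did not overlap with “Mother” animals higher. The share of X-like windows at 10% to 60% was 41.7% ± 2.82 in the 6 “Mother” animals (SD). In the 6 “Attacker” animals it was 8.87% ± 2.18 (SD). At the opposite end, the 110 X-like windows over 80% in “Parental” and “Father” animals had a mean of 89.1% ± 1.55 (SD, n = 6) in “Attacker” and 84.9% ± 1.11 (SD, n = 6) in “Mother” animals, without overlap. The 6217 such windows of other sequence were at 88.3% ± 1.35 and 88.2% ± 0.424 (SD, n = 6 and 6).

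Depth and level moved together by stretch. Among stretches of 1 Mb with at least 3 windows of low level in males, the median difference (“Mother” minus “Attacker”) was over 2 points in 26 of 29 X-like stretches of unplaced scaffolds, in 10 of 14 X-like stretches of placed sequence and in 10 of 1815 other stretches. The medians of these differences were 8.08, 5.15 and -0.0416 points. The 10 other stretches over 2 points included stretches of JH996447.1, JH996487.1 and JH996516.1, scaffolds that also hold X-like stretches. Their log2 depth ratios of “Mother” over “Attacker” animals were 0.114, 0.137 and 0.133, and over all 10 they ranged from -0.140 to 0.353. Whether these stretches are X-linked was not tested. Depth was used to define X-like sequence, and the level in males entered the scaling of depth. The part of read depth itself in the level was therefore not tested.

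**Figure D3:**
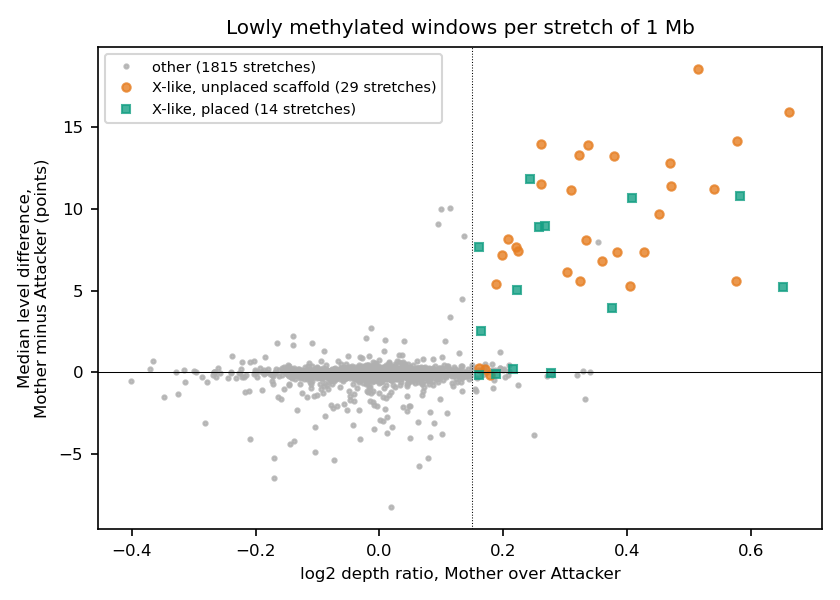
For each stretch of 1 Mb, the median level difference (points, “Mother” minus “Attacker”) of windows with low level in “Parental” and “Father” males, against the log2 ratio of read depth in “Mother” over “Attacker” animals. X-like stretches lie to the right of the dotted line at 0.15 and mostly above 2 points. Some other stretches also lie to its right, as the rule needed a second ratio, over “Parental” and “Father” animals, that is not plotted. Most of the 1815 other stretches lie near 0.

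The run at 10:34000000-40999999 held 120 windows that were low in males. The “Mother” mean was higher than the “Attacker” mean in 110 of them, at 23 the groups did not overlap, and the median difference was 6.56 points. In the rest of chromosome 10 the “Mother” mean was higher in 759 of 1568 such windows, and there was no window without overlap and “Mother” animals higher. In the shorter run at LG10:17000000-18999999 the “Mother” mean was higher in 11 of 12 such windows. The genes annotated in these runs with a window number 53, and for 30 of them the window with the smallest p had an unadjusted p under 0.05 with “Mother” animals higher, against 1 with “Attacker” animals higher. In X-like stretches elsewhere this held for 1 of 15 genes with “Mother” animals higher. The background share at this p was 4.67% of all windows, but the smallest p was taken per gene, so that the counts are a description.

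Several of these genes are known from neurons and from gene control, and the mouse and human genes of the same names are X-linked. Aside from Hs6st2 and Rpgr their windows did not pass the test, and they were chosen after their values were seen. Cask, a scaffold kinase of synapses, had a window at 0% to 1.19% in “Attacker” and 10.98% to 29.1% in “Mother” animals (difference 17.9 ± 3.14 points, SE, limma adjusted p = 0.138). Rbm3, an RNA-binding protein induced by cold, was at 1.19% ± 1.35 and 10.7% ± 2.40 (SD, n = 6 and 6, limma adjusted p = 0.120). These windows did not overlap between the groups.

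Bcor, a transcriptional corepressor, had 28 windows, the most of any gene here, and its window with the smallest p was at 0.233% ± 0.381 and 5.47% ± 1.93 (SD, n = 6 and 6, limma adjusted p = 0.169). Usp9x, a deubiquitinase, was at 0.622% ± 0.512 and 7.08% ± 2.88 (SD, n = 6 and 6, limma adjusted p = 0.265). The spread among “Mother” animals was wide at Suv39h1, a histone methyltransferase, with levels from 6.34% to 38.0% against 0% to 1.34% in “Attacker” animals. Otud5, another deubiquitinase, had 8 called cytosines in 1 window, at 9.20% to 35.1% in “Mother” and 0% to 2.53% in “Attacker” animals (limma adjusted p = 0.267).

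Sytl5, a synaptotagmin-like protein of vesicle transport, stood out by direction. Its window of 3 cytosines was at 86.3% ± 7.43 (SD, n = 5 with a level) in “Attacker” and 55.1% ± 7.41 (SD, n = 6) in “Mother” animals (limma adjusted p = 0.200), and “Parental” and “Father” males were at 69.2% to 100%. Maoa, which encodes the monoamine oxidase A that breaks down serotonin and noradrenaline, lies in an X-like stretch of another linkage group, LG3. The window next to it had 0%, 0%, 0.699%, 0%, 0% and 0% in “Attacker” 1 to 6 and 13.1%, 5.16%, 7.06%, 6.89%, 1.82% and 8.31% in “Mother” 1 to 6. The groups did not overlap, but the difference of 6.94 ± 1.55 points (“Mother” minus “Attacker”, SE) did not pass the test (limma adjusted p = 0.357), and “Parental” males were at 1.76% ± 0.878 (SD, n = 6).

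**Figure D4:**
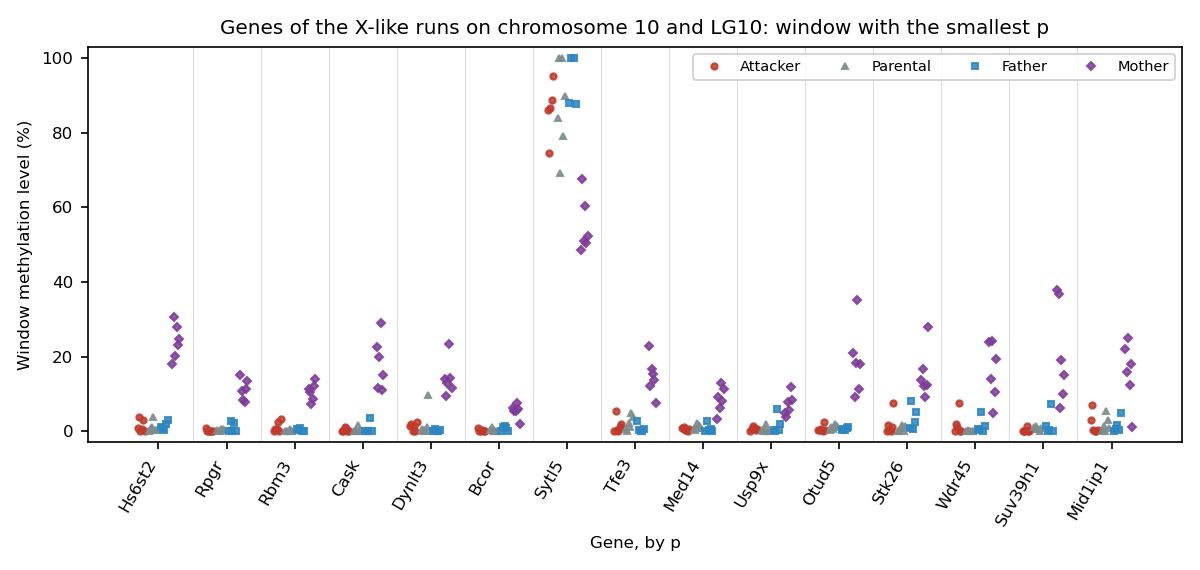
Methylation level (%) in each of the 23 animals of the window with the smallest p of 15 genes annotated in the X-like runs of chromosome 10 and LG10, in order of p. Points are animals, coloured by group. Hs6st2 and Rpgr passed the test, males lie under 10% except at Sytl5, and most “Mother” animals lie above them, although single “Mother” animals lie within the range of the males at several genes. At Sytl5 all “Mother” animals lie below the males.

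Outside X-like sequence 3 windows were called. JH996599.1:71000-71999 had the same form as the X-like windows, at 0% to 2.08% in “Attacker” and 14.9% to 27.8% in “Mother” animals (difference 20.02 ± 2.82 points, SE, limma adjusted p = 0.0433), and the males not used were at 0% to 1.88%. Depth over this scaffold did not differ by the rule above, with a log2 ratio of -0.003 over “Attacker” and 0.14 over “Parental” and “Father” animals. The other 2 windows held 3 cytosines each and lie far from annotated genes.

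At 24:30557000-30557999, 90425 bp from the nearest annotated gene (a transfer RNA gene), levels were 62.9%, 61.2%, 48.9%, 54.3%, 56.0% and 56.6% in “Attacker” 1 to 6. They were 90.6%, 100%, 100%, 88.1%, 90.4% and 90.1% in “Mother” 1 to 6, a difference of 36.6 ± 4.44 points (“Mother” minus “Attacker”, SE, limma adjusted p = 0.0226). “Parental” and “Father” males were spread from 33.3% to 100%, over the range of both groups. At 5:94681000-94681999, 38765 bp from Abhd5, a regulator of fat breakdown, 4 “Attacker” animals with a level were at 65.7% to 100% and the 6 “Mother” animals at 0% to 23.1% (difference 73.4 ± 9.04 points, “Attacker” minus “Mother”, SE, limma adjusted p = 0.0361). Here the males not used spread from 0% to 77.8%. All 3 windows lost the call when X-like sequence was left out before the fit, a setting chosen after seeing the data. Then 0 of 59520 windows were called by limma, the smallest adjusted p was 0.0923 and 2568 windows had an unadjusted p under 0.05.

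Over the called windows, the means of the “Parental” and the “Father” males were on the “Attacker” side of the midpoint between the compared groups at 16 of 17 windows. The exception for both groups was the window on chromosome 5. All 14 windows higher in “Mother” animals had both means on the “Attacker” side.

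Single cytosines were compared by a beta-binomial Wald test on the counts of reads. In simulated data 325 of its 2831 calls (11.5%) were at unchanged cytosines, more than its threshold implies. Of 1245665 cytosines, 896 (0.0719%) were called at an adjusted p under 0.05 with a difference over 15 points, 496 higher in “Attacker” (0.0398%) and 400 higher in “Mother” animals (0.0321%). The groups did not overlap at 690 of them, against 0.137% of all cytosines tested. X-like sequence held 0.958% of the cytosines and 216 of the calls (24.1%), 186 of these higher in “Mother” animals. On other sequence 680 were called, 466 higher in “Attacker” and 214 higher in “Mother” animals. Over all cytosines the excess higher in “Attacker” animals was not stable. Calls higher in “Attacker” and in “Mother” animals numbered 340 and 412 without “Attacker” 6, and 425 and 434 without “Mother” 3. They numbered 191 and 233 with a minimum of 20 reads, and 80 and 160 with 10 reads in all 12 animals. The other fits that called any cytosine kept the excess. With limma on the levels of the animals, 7 cytosines were called, all on X-like sequence, all higher in “Attacker” animals and all among the 896.

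The calls on X-like and on other sequence differed in how the unused males lay, as a description. “Parental” means were on the “Attacker” side at 206 of 216 X-like calls and at 350 of 675 other calls with a level. “Father” means were on that side at 210 of 216 and at 349 of 677. Calls on X-like sequence were also less scattered, with 28 of 92 windows holding 3 or more of them, against 11 of 603 windows on other sequence. The median absolute difference was 34.4 points on X-like and 54.7 points on other sequence, and 250 of the 896 calls (27.9%) had 10 reads in all 12 animals, against 44.98% of cytosines tested.

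Among called cytosines higher in “Mother” animals, JH996447.1:2107581 was at 0%, 0%, 3.90%, 0%, 0% and 0% in “Attacker” 1 to 6 and at 60.2%, 61.9%, 66.8%, 35.4%, 60.6% and 57.9% in “Mother” 1 to 6. It rested on 848 “Attacker” reads, of which 13 were methylated, and on 2693 “Mother” reads, of which 1519 were methylated (beta-binomial Wald adjusted p = 7.04e-25). A neighbour on the same scaffold, JH996447.1:2107590, and JH996480.1:1041499, with “Mother” levels of 32.9% to 53.7%, had the same pattern. Of the 5 called cytosines higher in “Attacker” animals that had the smallest p without overlap, 4 lie in the window JH996487.1:1882000-1882999 described above.

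The named cytosines on other sequence rested on few reads. The cytosine 17:13836557, 47352 bp from Msra, which encodes a methionine sulfoxide reductase, was at 100% in 4 “Attacker” and 0% in 4 “Mother” animals, on 92 and 59 reads. The cytosine LG8:23493087, 13190 bp from Chmp4b, a subunit of the membrane-cutting complex ESCRT, was at 0% in 5 “Attacker” and 83.3% to 100% in 4 “Mother” animals. LG8:1386524 in Slco4a1, an organic anion transporter, was at 0% to 38.9% in 4 “Attacker” and 93.8% to 100% in 4 “Mother” animals, and of the 2 “Parental” animals with a level 1 was at 0% and 1 at 100%. Few of the unused males had a level at these cytosines.

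The window with the most called cytosines higher in “Attacker” animals, 16, was JH996454.1:5395000-5395999, which did not pass the window test (difference 13.8 ± 2.17 points, SE, limma adjusted p = 0.0721). Its 90 cytosines had 13.2%, 14.7%, 14.4%, 18.0%, 17.1% and 19.3% in “Attacker” 1 to 6 and 1.00%, 1.57%, 1.23%, 1.40%, 6.24% and 2.77% in “Mother” 1 to 6. “Parental” and “Father” males were at 11.4% to 23.5%, so that each of the 17 males was above each “Mother” animal. Depth of this stretch was lower in “Mother” animals, with log2 ratios of -0.26 over “Attacker” and -0.40 over “Parental” and “Father” animals. The window itself held 50169 “Attacker” and 26578 “Mother” reads, and the part of read depth in its level was not tested. The window JH996454.1:5394000-5394999 before it, with 8 called cytosines, was at 9.69% ± 3.60 in “Attacker” and 0.786% ± 0.499 in “Mother” animals (SD, n = 6 and 6, limma adjusted p = 0.209), also without overlap. On the same scaffold JH996454.1:5393000-5393999 and JH996454.1:5386000-5386999, with 7 and 3 called cytosines, were also higher in “Attacker” animals without overlap. Neither passed the window test (limma adjusted p = 0.259 and 0.209).

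The level over all windows did not separate the groups. Over the 46745 windows with a level in all 12 animals, the mean level was 16.4%, 17.7%, 16.97%, 18.6%, 19.7% and 21.8% in “Attacker” 1 to 6 and 17.2%, 17.5%, 17.8%, 17.5%, 17.8% and 17.96% in “Mother” 1 to 6. “Attacker” animals lay on both sides of the “Mother” animals and were more spread, with means of 18.5% ± 1.98 and 17.6% ± 0.277 (SD, n = 6 and 6). The difference of 0.92 points did not pass the test (two-sided exact permutation test over animals, p = 0.320, 0.571 adjusted over 4 window classes, smallest p possible 0.00216). It was 0.26 points without “Attacker” 6, the library with the highest methylated share of calls.

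Windows were then split by the mean level of all 12 animals. Windows of 20% to 80% were at 45.9% ± 5.54 in “Attacker” and 43.1% ± 0.936 in “Mother” animals (SD, n = 6 and 6, two-sided exact permutation p = 0.268, adjusted 0.571). Windows under 20% were at 3.96% ± 0.882 and 3.61% ± 0.183 (exact permutation p = 0.429, adjusted 0.571). Windows over 80% were at 89.2% ± 0.878 and 89.3% ± 0.277 (exact permutation p = 0.870, adjusted 0.870).

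**Figure D5:**
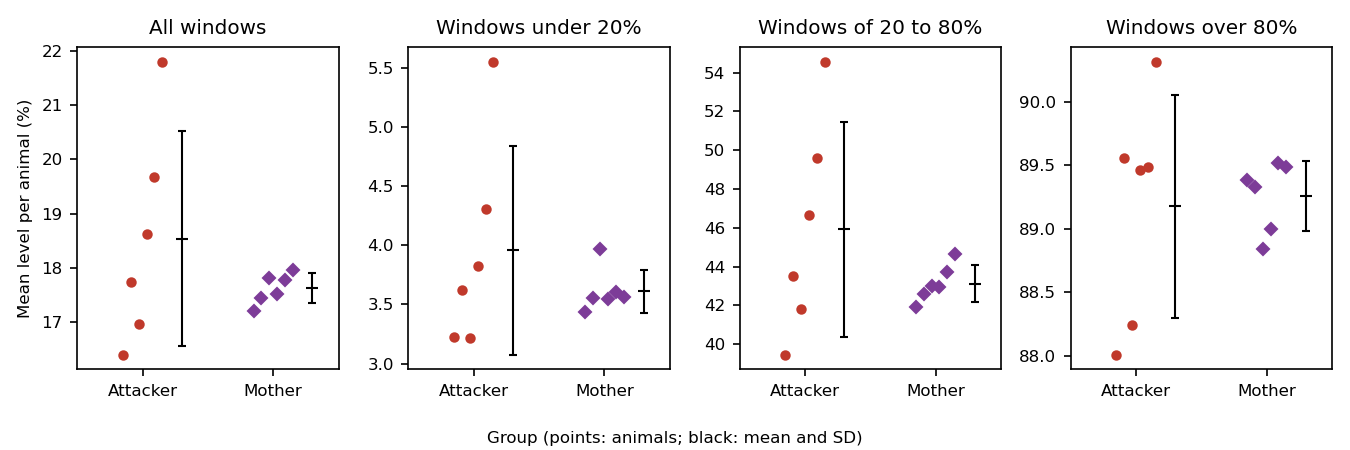
Mean methylation level per animal (%) over all windows and over windows under 20%, of 20% to 80% and over 80%, for 6 “Attacker” and 6 “Mother” animals. Points are animals and black marks the mean and SD. The groups overlap in each class, and “Attacker” animals are more spread, from 16.4% to 21.8% over all windows.

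Animals of the 2 groups were about as far apart as animals of 1 group. The root mean square difference of window levels averaged 14.5 points between the groups, 15.2 points within “Attacker” and 13.6 points within “Mother” animals. The ratio of between to within was 1.005 (one-sided exact permutation test over animals, p = 0.221), and 1.002 without X-like sequence (exact permutation p = 0.297). At a one-sided exact permutation test it passed the threshold without “Attacker” 1 (exact permutation p = 0.0498) or “Attacker” 3 (exact permutation p = 0.0411), and was below 1 without any 1 “Mother” animal.

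Gene lists for parental care, neural function and cell types of the region were read over windows in or within 5 kb of their genes. Of 221 genes on 11 lists, 139 had a window, with 687 windows in all and none on X-like sequence. No window was called by limma, against 0.0282% of all windows, and the smallest adjusted p was 0.787. In simulated data this test called only 11 of 100 windows changed by 40 points. The absence of calls therefore does not show equal levels. At an unadjusted p under 0.05 there were 24 windows (3.49%, against 4.67% of all), 12 higher in each direction. The beta-binomial test on summed reads called 1 of the 687, against 400 of all 60262 windows. Limma on the log2 ratio of methylated to unmethylated reads called 0, against 90 of all windows. The median difference was 0.14 points (“Attacker” minus “Mother”), against 0.10 over all windows.

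Hormones and receptors of parental care had 16 genes with 52 windows, none at an unadjusted p under 0.05. These included receptors of prolactin and steroids and 1 window of the vasopressin receptor gene Avpr1b. No gene of oxytocin or its receptor had a window, so that oxytocin was not tested here. The smallest p was at Kiss1r, the receptor of kisspeptin, at 3.86% ± 0.662 in “Attacker” and 8.11% ± 4.62 in “Mother” animals (SD, n = 6 and 6, limma adjusted p = 0.924). Wnt signalling, which acts in adult neurogenesis, had 44 genes with 244 windows. At an unadjusted p under 0.05, 5 of them were higher in “Attacker” and 2 higher in “Mother” animals (2.87%, against 4.67% of all windows). Its smallest p was at Wnt8b, a ligand, at 25.3% ± 14.6 and 6.03% ± 7.27 (SD, n = 6 and 6, limma adjusted p = 0.924).

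Among 12 genes of the DNA methylation machinery with 49 windows, the smallest p of any list was at Dnmt3a, a de novo methyltransferase, at 0.134% ± 0.224 and 1.15% ± 0.621 (SD, n = 6 and 6, limma adjusted p = 0.787). Of the 8 windows of Dnmt3a, 2 had an unadjusted p under 0.05, this one higher in “Mother” and the other higher in “Attacker” animals. Imprinted genes (15 genes, 66 windows) had 1 window at an unadjusted p under 0.05, in the potassium channel gene Kcnq1, at 87.7% ± 10.7 (SD, n = 5) and 99.2% ± 1.98 (SD, n = 6). Granule cell and neurogenesis genes (17 genes, 108 windows) had 2, both higher in “Attacker” animals, with the smallest p in a window within reach of Cdk5r1 that lies in Myo1d.

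No window of the markers of other cell types that a punch could hold was called by limma. The beta-binomial test called 1 of the 687 windows of all lists, at an interneuron marker, against 400 of all 60262 windows. At an unadjusted p under 0.05 there was 1 of 43 windows for oligodendrocytes (smallest p at Pdgfra), 2 of 21 for astrocytes (Sox9) and 1 of 5 for microglia (Itgam). There were 5 of 35 for interneurons (Slc32a1), 0 of 44 for choroid plexus and meninges (smallest p at Col1a1) and 3 of 20 for endothelium (Cdh5). Itgam, an integrin of microglia, was at 94.96% ± 5.88 (SD, n = 4) in “Attacker” and 78.0% ± 8.22 (SD, n = 5) in “Mother” animals without overlap (limma adjusted p = 0.924). Slc32a1, the vesicular GABA transporter, was at 0.670% ± 0.708 and 3.37% ± 1.73 (SD, n = 6 and 6, limma adjusted p = 0.924).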

How the data were processed

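Libraries of 100 ng DNA per animal were sequenced by RRBS. The authors used bcl2fastq, Trim Galore and Bismark with the MicOch1.0 assembly, and deposited, per CpG cytosine and strand, counts of reads and of methylated reads. Groups came from the labels. Members and lists were chosen with earlier results of these data known.

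Cytosines needed 10 reads in 4 animals of each group, outside chromosome X. Window levels (1000 bp, at least 3 cytosines) were tested with limma 3.58.1 in R 4.3.3 (trend, robust), and cytosines with a 2-group beta-binomial Wald test after DSS, rewritten in Python 3.11.15, with Benjamini-Hochberg adjustment. Both were tested on simulated data, in which the window test missed most changed windows and the cytosine test called more unchanged cytosines than its threshold implies. Single values per animal had exact permutation tests (924 splits, two-sided, except that the distance ratio was tested for larger values). Reads without molecular identifiers give counting error only.

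Named were called windows within 5 kb of a gene, the 5 called cytosines per direction with the smallest p and no overlap, the window with most called cytosines per direction, and the smallest-p gene of each list. Other named items were chosen after their values were seen, as was the X-like rule. Gene spans came from RefSeq, where 7299 of 26397 genes had no named sequence, so that exons, strand and scaffold genes are not given. The alternatives varied read minimum, scale, window, test, sequence and animals.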

Additional observations from a re-analysis of the deposited data

Results flagged for a closer look

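In 54 groups of up to 6 animals, the highest and lowest animal were compared with the others by Dixon's gap ratio (95% level), and 5 passed. For normally distributed values about 1 of 20 groups would pass. That rate need not hold for windows near 0%, and a group at 0% throughout could not pass. “Mother” 3 had a mean of 3.96% over windows under 20%, with the other “Mother” animals at 3.43% to 3.61%. The same animal had 4.66% over windows of other sequence that were low in “Parental” and “Father” males, with the others at 3.99% to 4.14%. “Attacker” 1 was at 78.2% in the window JH996487.1:1882000-1882999, with the others at 93.2% to 100%. In the Rpgr window “Attacker” 1 was at 0.850%, with the others at 0% to 0.113%. In the window JH996443.1:7073000-7073999 “Attacker” 5 was at 0.568% and the others at 0%.

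The chromosome named X entered no test. Its 384 windows that were low in “Parental” and “Father” males had a mean of 13.2% ± 0.986 for “Mother” and 2.72% ± 0.510 for “Attacker” animals (SD, n = 6 each). The “Mother” mean was higher in 364 of them.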

How the results depend on the processing

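From 17 called windows (3 higher in “Attacker”, 14 higher in “Mother” animals), the count moved to 90 (8 and 82) on the log2 ratio of methylated to unmethylated reads, 33 with pooled reads, 30 in limma with no trend and no robust moderation, 10 and 9 with minimums of 5 and 20 reads, 1 with cytosines read in all 12 animals and 400 (183 and 217) by the beta-binomial test on window reads. It was 0 by limma on placed sequence alone (1939 at an unadjusted p under 0.05) and 0 without X-like sequence (2568, chosen after seeing the data). Leaving out 1 animal gave 2 to 15. The 896 called cytosines became 7 by limma on levels, 19651 at an unadjusted p, 1393 and 424 with minimums of 5 and 20 reads, 240 with 10 reads in all 12 animals and 490 on placed sequence, with 752 to 951 when 1 animal was left out. The causes were not tested.

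The difference over windows above 80% turned to 0.19 points with a minimum of 20 reads, 0.15 without “Attacker” 1 and 0.11 without “Attacker” 3, and was -0.31 to 0.15 over all the fits that left out 1 animal. The mean over all windows kept its direction, at 0.26 to 1.34 points when 1 animal was left out. The distance ratio was 0.992 to 1.025 when 1 animal was left out. It fell below 1 without any 1 “Mother” animal, at 0.994, 0.992, 0.992, 0.993, 0.996 and 0.996 without “Mother” 1 to 6.

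By their window levels the replicate numbers did not pair the animals (correlation of same-numbered deviations -0.0157 to 0.0402, 2 of 6 “Attacker” animals closest to their own number). With the replicate block limma called 0 windows (2720 at an unadjusted p under 0.05) and 0 cytosines (10961), and the paired exact permutation p of the mean level was 0.281. The methylated share of calls was lowest in number 1 in all 4 groups, and highest in number 6 in “Attacker”, “Mother” and “Parental” and in number 4 in “Father” animals. Its part in the results was not tested. Of the cytosines tested, 44.98% had 10 reads in all 12 animals.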

Other observations

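A constant-region gene of an immune receptor on chromosome 1, LOC101998540, had 7 called cytosines in the window 1:49206000-49206999, all higher in “Attacker” animals, and was picked after its values were seen. Levels were 66.6%, 82.6%, 78.6%, 52.7%, 31.4% and 88.8% in “Attacker” 1 to 6 and 15.5%, 11.4%, 15.03%, 5.94%, 15.4% and 28.5% in “Mother” 1 to 6. The groups did not overlap, the difference was 51.5 ± 9.38 points (SE, limma adjusted p = 0.169), and the unused males spread from 14.8% to 75.7%, over both groups.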
